A study of Mus musculus with 9 samples.

Results

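The genes described here are 10 members of the AP-1 group of transcription factors: Jun, Junb and Jund of the Jun family, Fos, Fosb, Fosl1 and Fosl2 of the Fos family, and the relatives Atf3, Maff and Batf3. Their messenger RNA was read on Affymetrix gene arrays of the mouse yolk sac at E9.5, and they are 10 of the 19933 genes that had a probe set naming no other gene. The members were chosen by the high Jun signal of the knockout arrays, so their values in comparisons with the knockout are a description, and the counts of calls given for them there are read as no evidence. The arrays held 3 knockout (KO, Rnh1-/-), 3 heterozygous (HET, Rnh1+/-) and 3 wild-type (WT, Rnh1+/+) samples, all untreated and on a mixed SV 129/C57BL/6 background. The product of Rnh1, the ribonuclease inhibitor, sits in the cytosol, where it binds and inactivates pancreatic-type ribonucleases. The labels do not say which part of Rnh1 was deleted, whether a sample was 1 yolk sac or a pool, or whether replicates came from separate animals, so the tests measure only the spread between these samples.

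AP-1 is not a single protein but a pair of leucine zipper proteins that grip DNA together through adjoining basic regions. Jun proteins can pair with one another or with Fos proteins, whereas Fos proteins need a Jun partner to bind DNA. Many of the genes are immediate early genes, switched on within minutes of a growth factor or stress signal through MAP kinases, and Jun protein can raise transcription of its own gene through an AP-1-like site in its promoter. In mice, embryos without Junb or without Fosl1 die at midgestation with defects of the extraembryonic tissues, the yolk sac and placenta among them.

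The promoter windows of Jun and Maff are shown because they hold the only matches, among the members, to the AP-1-like letters TGACATCA, through which Jun is known to act on its own gene. RefSeq windows on GRCm38.p6, from 250 bases before to 50 bases after an annotated gene start, were found for 9 of the 10 members. Fosl1 is the member without one. Capitals mark the 8 letters TGACATCA, which lie at positions -45 to -38 from the start in both windows.
Jun, chr4:95052173-95052472, minus strand: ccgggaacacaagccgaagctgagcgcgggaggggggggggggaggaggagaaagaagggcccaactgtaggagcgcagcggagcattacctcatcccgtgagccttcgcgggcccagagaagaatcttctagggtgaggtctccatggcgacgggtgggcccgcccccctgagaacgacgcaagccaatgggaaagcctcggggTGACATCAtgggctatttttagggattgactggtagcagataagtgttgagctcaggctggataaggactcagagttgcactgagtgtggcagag
Maff, window 3 of 3, chr15:79348152-79348451, plus strand: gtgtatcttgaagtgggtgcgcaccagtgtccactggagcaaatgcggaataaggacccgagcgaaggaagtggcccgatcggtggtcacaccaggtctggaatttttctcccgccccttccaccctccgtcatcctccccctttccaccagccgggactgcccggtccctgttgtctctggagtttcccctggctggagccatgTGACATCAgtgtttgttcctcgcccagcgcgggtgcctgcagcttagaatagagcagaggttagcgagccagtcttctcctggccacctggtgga
These 8 letters, searched on both strands, were found in 3.62% of 32851 windows of all genes. The classical AP-1 site TGACTCA, searched likewise and present in 5.2% of all windows, was found in 0 of the 11 windows of the members. The cAMP response letters TGACGTCA, in 1.79% of all windows, were found in 1, another start of Maff, at positions -29 to -22. The CArG box, the site bound by serum response factor and present in 1.63% of all windows, was found in 0 of the 11. The 3 windows with a match held 1 each, so no matches overlapped. A match or its absence concerns only the letters of this window, and a window need not lie at the main start of its gene. For Jund it lies at the outermost start of the RefSeq gene.

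Values are log2 signals, so a difference of 1 is a doubling. Signals of different probe sets are not comparable, and genes are therefore compared only between arrays. All 10 members passed the filter on dim genes, which asked for a signal above the 40th percentile of the array on at least 3 of 9 arrays. That percentile lay between 6.35 and 6.57. Fosl1 was above it on 8 arrays, and the other 9 members on all 9, so none passed only through the arrays of 1 genotype.

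The genotype labels and the tissue were checked first. The Rnh1 signal was 6.28, 6.78 and 6.87 on the KO arrays, against 9.75, 9.75 and 9.77 on the HET arrays and 10.39, 10.42 and 10.32 on the WT arrays. Visceral endoderm markers averaged 11.8 to 12.0 in KO, 12.0 to 12.1 in HET and 12.1 in WT, with all 9 tested and 1 of them lower in KO than in WT. Macrophage markers averaged 7.10 to 7.32 in KO, 7.61 to 7.76 in HET and 7.57 to 7.73 in WT, with 3 of 4 tested markers lower in KO than in WT. Markers of extraembryonic mesoderm averaged 10.9 to 11.1 in KO, 10.8 to 10.9 in HET and 10.8 to 10.9 in WT, with 2 of 5 higher and 1 lower in KO than in WT. Erythroid markers averaged 11.1 to 11.5 in KO, 11.4 to 11.7 in HET and 11.5 to 11.6 in WT, with 2 of 6 lower in KO than in WT, and of the 5 endothelial markers 1 was lower. Tissue was freed of maternal contamination per the labels, and markers of maternal decidua averaged 8.18 to 8.60 in KO, 7.21 to 8.09 in HET and 7.76 to 8.48 in WT, with 1 of 3 tested higher in KO than in WT. Parietal endoderm markers averaged 9.85 to 10.02 in KO, 10.01 to 10.11 in HET and 10.09 to 11.22 in WT, with 1 of 5 lower in KO than in WT. The WT arrays were split, with WT 2 at 10.09, within the HET range, and WT 1 and WT 3 at 10.75 and 11.22, above every other array. Over all genes tested, 8.27% were called higher and 15.2% lower in KO than in WT. A single called marker in a set is therefore not read as a shift of that cell type. The parts that differences in tissue make-up have in the AP-1 values were not tested. In whole tissue, fewer cells of a type and less RNA per cell cannot be told apart. Xist, the RNA that coats the inactive X, stood at 10.56 to 11.67 on KO 1, KO 2, KO 3, HET 2, WT 2 and WT 3 and at 5.15 to 5.76 on HET 1, HET 3 and WT 1. The Y-linked Eif2s3y stood at 4.41 on KO 3 and 4.34 on WT 3 and at 7.27 to 8.81 on the other 7 arrays, so 4 arrays had both at the high level.

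Jun was the member with the largest difference between KO and WT and between KO and HET. It stood at 9.93, 10.23 and 9.91 on the KO arrays, at 8.23, 8.80 and 8.38 on the HET arrays and at 8.76, 8.44 and 8.62 on the WT arrays. Every KO array lay more than 1 log2 unit above every HET and WT array, while HET and WT overlapped. The KO minus WT difference was 1.42 ± 0.15 (log2, SE, n = 3 per genotype), a fold of 2.67, and the KO minus HET difference was 1.55 ± 0.15, a fold of 2.93. Counted from the largest rise down, the KO minus WT difference of Jun ranked 5 among the 13207 genes tested, falls coming after all rises. With the Xist level of each array as a covariate the KO minus WT difference was 1.36.

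**Figure D1:**
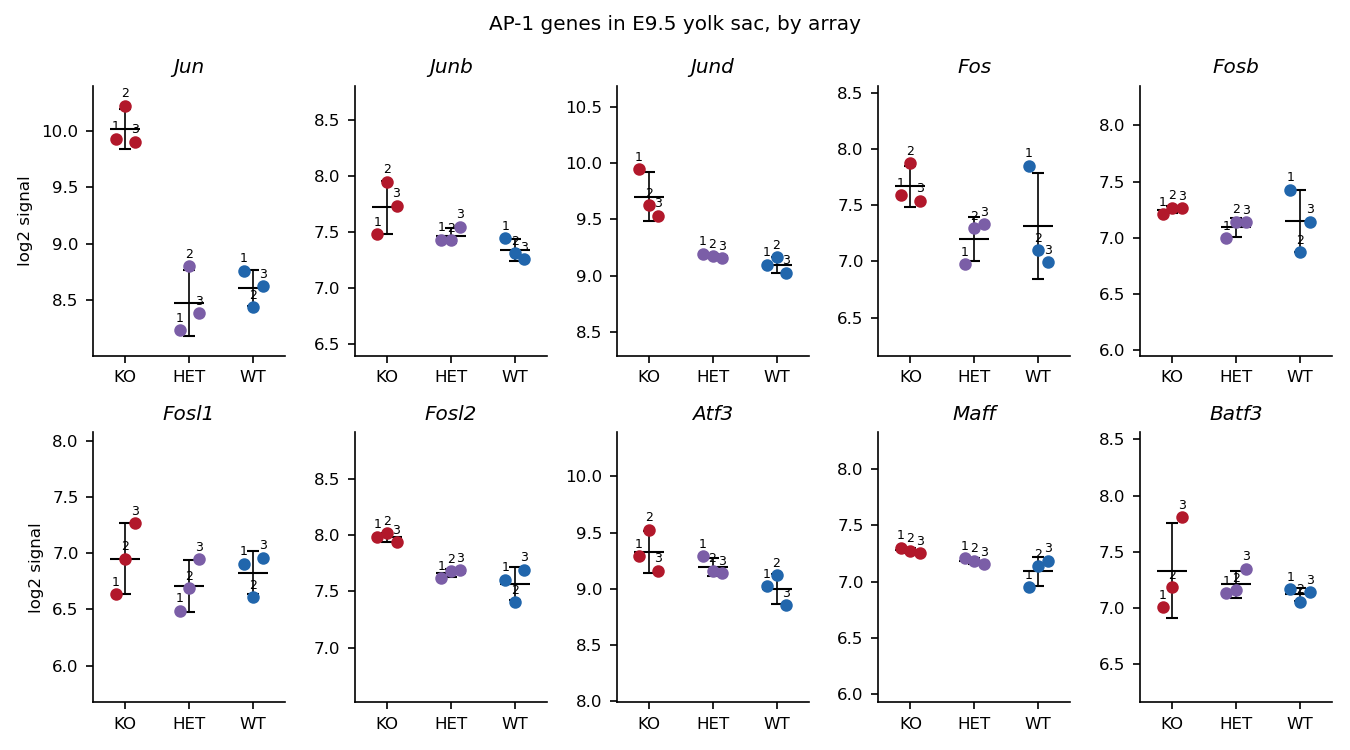
Log2 signal of each AP-1 gene (vertical axis, the same span of 2.4 log2 units in every panel) in KO, HET and WT arrays (points, numbered by replicate), with the mean and SD of 3 arrays in black. The Jun panel shows the KO arrays at 9.91 to 10.23, clear of the HET and WT arrays, and the Fos panel shows WT 1 at 7.85 beside the KO arrays.

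Jund, the most broadly expressed Jun protein, came next. It stood at 9.94, 9.63 and 9.53 on KO, 9.19, 9.17 and 9.16 on HET and 9.10, 9.16 and 9.03 on WT arrays. All KO arrays lay above all HET and WT arrays, with KO 1 the highest. The differences were 0.61 ± 0.10 for KO minus WT (1.52-fold) and 0.53 ± 0.10 for KO minus HET (1.44-fold). Junb, which can oppose Jun on some promoters, stood at 7.48, 7.95 and 7.73 on KO, 7.43, 7.43 and 7.55 on HET and 7.44, 7.31 and 7.26 on WT arrays. The KO arrays lay above the WT arrays, though KO 1 only narrowly above WT 1, and KO 1 lay below HET 3. Its KO minus WT difference was 0.38 ± 0.11, which became 0.27 without KO 2 and 0.50 without KO 1, and its KO minus HET difference was 0.25 ± 0.11, or 0.14 without KO 2.

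In the Fos family, Fosl2 was the member whose KO arrays were separated from both other genotypes. Fosl2, which encodes the Fos-related protein Fra-2, stood at 7.99, 8.02 and 7.94 on KO, 7.62, 7.68 and 7.69 on HET and 7.60, 7.41 and 7.69 on WT arrays. The 3 KO arrays were tightly grouped (SD 0.04) and above all others. Its differences were 0.41 ± 0.08 for KO minus WT (1.33-fold) and 0.32 ± 0.08 for KO minus HET (1.25-fold).

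Fos, the founding partner of Jun, stood at 7.59, 7.87 and 7.54 on KO, 6.97, 7.30 and 7.33 on HET and 7.85, 7.10 and 6.99 on WT arrays. The KO arrays were above all HET arrays, but WT 1 lay among the KO arrays and the other 2 WT arrays lay below them. The KO minus WT difference of 0.35 ± 0.21 became 0.62 without WT 1, 0.19 without WT 3 and 0.07 with array weights, and the KO minus HET difference was 0.47 ± 0.21. On WT 1 the early growth response gene Egr1, named after its values were seen, was also the highest of its genotype, at 8.14 against 7.08 on WT 2 and 7.23 on WT 3.

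Fosb, a close relative of Fos, stood at 7.21, 7.27 and 7.27 on KO, 6.997, 7.15 and 7.14 on HET and 7.43, 6.87 and 7.15 on WT arrays. Here too WT 1 was the highest array of its genotype, and it lay above every KO array. The KO minus WT difference was 0.10 ± 0.12 and changed sign without WT 2, to -0.04, and was 0.24 without WT 1. It lay above 0 in 19 of 22 alternative settings, with a lowest value of -0.09. Fosl1, which encodes Fra-1, stood at 6.63, 6.95 and 7.27 on KO, 6.49, 6.69 and 6.95 on HET and 6.91, 6.61 and 6.96 on WT arrays. The 3 genotypes overlapped, and the KO minus WT difference of 0.13 ± 0.17 ran from -0.03 without KO 3 to 0.28 without KO 1, and was 0.02 without WT 2 and 0.19 without WT 3.

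Among the other relatives, Atf3, a stress-induced factor that can repress as well as activate, stood at 9.29, 9.53 and 9.16 on KO, 9.29, 9.16 and 9.14 on HET and 9.03, 9.12 and 8.85 on WT arrays. The WT arrays were the lowest, and KO and HET overlapped. The KO minus WT difference was 0.33 ± 0.10 and the KO minus HET difference 0.13 ± 0.10, which was 0.03 without KO 2 and 0.21 without KO 3. Maff, a small Maf protein with no activation domain of its own, stood at 7.30, 7.27 and 7.25 on KO, 7.21, 7.19 and 7.16 on HET and 6.95, 7.14 and 7.19 on WT arrays. The KO arrays lay above all others by small margins, with differences of 0.19 ± 0.07 against WT and 0.09 ± 0.07 against HET. The difference against WT was 0.12 without WT 1, and the difference against HET was 0.01 with the Xist level as a covariate.

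Batf3, known for its need in a class of dendritic cells, stood at 7.01, 7.18 and 7.81 on KO, 7.13, 7.16 and 7.35 on HET and 7.17, 7.06 and 7.14 on WT arrays. KO 3 stood alone at the top, and KO 1 was below every HET and WT array. The KO minus WT difference of 0.21 ± 0.18 became -0.02 without KO 3 and 0.38 without KO 1. On KO 3, where Batf3 and Fosl1 were highest, 2 of the 5 trophoblast markers with a probe set, named after their values were seen, also had their highest values, Tpbpa at 7.84 (4.26 to 5.90 on the other 8 arrays) and Ascl2 at 8.91 (6.47 to 7.84). A further trophoblast marker that passed the filter, Hsd3b6, went the other way, with its lowest value on KO 3, at 8.34 (9.19 to 11.11 on the other 8 arrays). The trophoblast markers averaged 6.28, 6.37 and 6.98 in KO, 5.94 to 6.30 in HET and 6.21 to 6.40 in WT, and 3 of the 5 (Tpbpa, Psg17 and Psg23) did not pass the filter. Of the markers of maternal decidua, Prl8a2 (11.34) and Wt1 (7.59) also had their highest values on KO 3, and Cryab and Pgr did not. The part of trophoblast and decidua markers in the Batf3 and Fosl1 values was not tested.

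**Figure D2:**
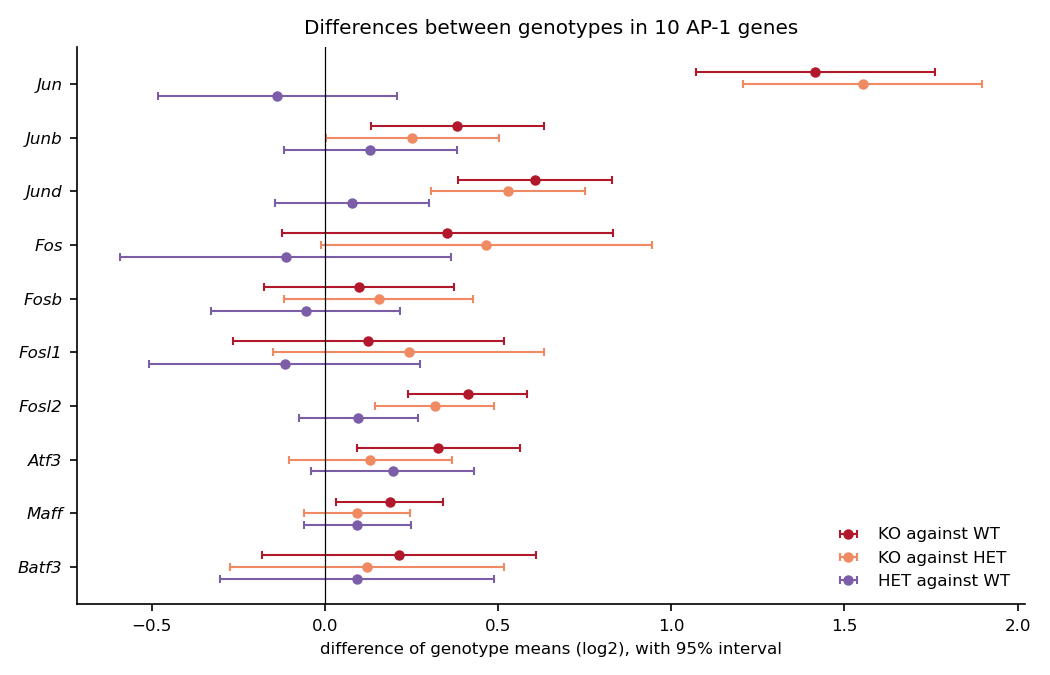
Differences of genotype means in log2 units (horizontal axis) for each AP-1 gene (rows), as limma estimates with 95% intervals, for KO against WT, KO against HET and HET against WT. The estimates for KO lie to the right of 0 for all 10 genes, with Jun far beyond the others, and all 10 intervals for HET against WT span 0.

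For all 10 members the KO mean was above the WT mean and above the HET mean. The KO minus WT differences ran from 0.10 for Fosb to 1.42 for Jun, with a median of 0.34 beside -0.0046 over all genes tested, and 49.1% of all genes lay above 0. The KO minus HET differences had a median of 0.25, beside -0.01 over all genes tested. By limma at an adjusted p under 0.05, 5 of the 10 (Jun, Junb, Jund, Fosl2 and Atf3) were called higher in KO than in WT and 0 lower, where 8.27% of all genes were called higher and 15.2% lower. Against HET, 3 of the 10 (Jun, Jund and Fosl2) were called higher and 0 lower, where the shares of all genes were 8.17% and 13.6%. The KO arrays lay wholly above the WT arrays for 6 members and wholly above the HET arrays for 6 members, where 15.8% and 15.7% of all genes did, and wholly below for 0 members in either comparison, where 24.7% and 21.4% of all genes did. The comparison with WT chose the family and that with HET shares its KO arrays, so nothing is read from these counts. The calls of Junb and Atf3 against WT were lost in 13 and 14 of 24 alternative settings, among them the setting with arrays centred on their medians and the omission of WT 2, WT 3, HET 1, HET 2 or KO 2, each of which left 3 members called (Jun, Jund and Fosl2). Against HET the call of Fosl2 was lost in 6 of 24 settings, with Xist or Eif2s3y as a covariate, without HET 1, HET 2 or KO 2 and with a change of 1.5-fold asked, and that of Jund in 2, with Xist and with 1.5-fold.

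Whether the loss of 1 copy of Rnh1 moved the AP-1 genes was asked by comparing HET with WT. The family was not chosen by this comparison, though its WT arrays were also in the comparison that chose Jun. None of the 10 members passed, with limma adjusted p from 0.939 to 0.962 and unadjusted p from 0.0919 for Atf3 to 0.657 for Fosb (n = 3 per genotype). In this comparison 0% of all 13207 genes passed by limma, and 327 had an unadjusted p under 0.05. Rnh1 itself was thus not called, although its HET arrays, at 9.75 to 9.77, lay wholly below its WT arrays, at 10.32 to 10.42. The absence of a call here therefore does not show the absence of a difference between HET and WT. The SD of Rnh1 was 0.32 in KO, 0.01 in HET and 0.05 in WT, and the part of the KO spread in its missing call was not tested. Of the 10 members 6 lay above 0 and 4 below. The HET minus WT difference of Jun was -0.14 ± 0.15 (95% interval -0.48 to 0.21), so these arrays leave room for a HET level between 0.72 and 1.15 times that of WT. Leaving out 1 array moved this difference between -0.30 without HET 2 and -0.02 without HET 1, with -0.06 without WT 1 and -0.22 without WT 2, all below 0. The two-sided exact permutation test over the arrays gave p = 0.5 for Jun, where 0.1 is the smallest p that 3 against 3 arrays allow. The interval for Jund was -0.14 to 0.30 and that for Fosl2 was -0.08 to 0.27, whereas that for Fos was wider, at -0.59 to 0.36.

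Atf3 had the largest HET minus WT difference of the members, 0.20 ± 0.10 (95% interval -0.04 to 0.43), which was 0.12 without WT 3. It was the 1 member of 10 whose HET arrays, at 9.14 to 9.29, lay wholly above its WT arrays, at 8.85 to 9.12, where 4.25% of all genes did so, and 0 members lay wholly below, where 5.98% of all genes did. The HET minus WT differences of Maff, 0.09 ± 0.07, and of Batf3, 0.09 ± 0.18, were small beside their intervals, and that of Maff was 0.02 without WT 1 and that of Batf3 0.02 without HET 3. The SE and intervals take in the spread of the KO arrays too. The SD of Batf3 was 0.42 in KO, 0.12 in HET and 0.06 in WT, and that of Jund 0.22, 0.02 and 0.07. For Fos the WT arrays spread most, with 0.18, 0.20 and 0.47. For Fos the sign of the difference turned without WT 1, at 0.16 in place of -0.11, and for Fosb at 0.08 in place of -0.06.

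The members also differed in how much they varied between arrays of 1 genotype, a measure that does not depend on differences between genotypes. The residual SD around the genotype means was 0.31 for Fos, 0.25 for Batf3, 0.25 for Fosl1 and 0.22 for Jun, all above the 90th percentile of all genes tested, which was 0.21. Fos was at percentile 97.9 of all genes, Batf3 at 95.3, Fosl1 at 95.1 and Jun at 91.4. At the other end were Maff, with a residual SD of 0.08 at percentile 25.5, and Fosl2, with 0.09 at percentile 37.6. The median gene had 0.11. The remaining 4 lay between, Fosb at percentile 79.6, Junb at 72.9, Atf3 at 68 and Jund at 63.5. Without WT 1 the number above the 90th percentile was 2, with Fos at 76.9 and Jun at 90. The position of Batf3 rested on KO 3, without which it was at percentile 48.5, and that of Jun on the HET arrays, at 73.9 without HET 2 and 85.6 without HET 1. Jun was at 89.8 without KO 2, and Fosl1 stayed between 91.6 and 96.4 with any 1 array left out.

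**Figure D3:**
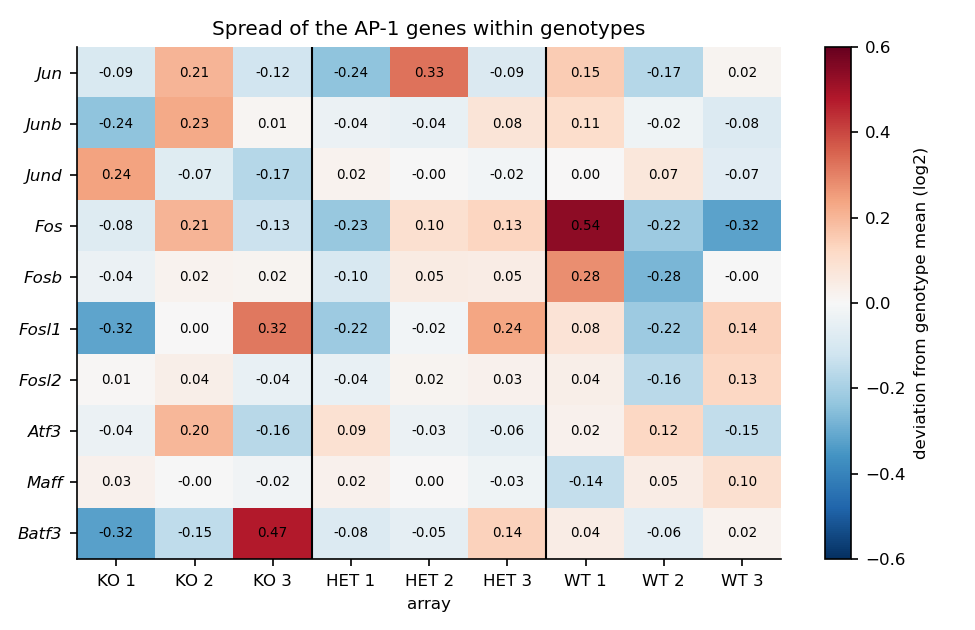
Deviation of each AP-1 gene (rows) from its genotype mean, in log2 units (colour scale and printed numbers), on each array (columns; KO, HET and WT separated by lines). The largest deviations are 0.54 for Fos on WT 1 and 0.47 for Batf3 on KO 3, and the farthest values of Fosl2 and Maff are -0.16 and -0.14.

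On no array did all members deviate from their genotype means in the same direction, though parts of the family did. WT 1 came nearest to it. Every member but Maff lay above its WT mean there, from 0.0005 for Jund to 0.54 for Fos, and Maff lay 0.14 below. On WT 2, Jun, Fos, Fosb, Fosl1 and Fosl2 lay 0.16 to 0.28 below their WT means. Jund, Atf3 and Maff lay 0.05 to 0.12 above theirs on that array. On KO 2, Jun, Junb, Fos and Atf3 lay 0.20 to 0.23 above their KO means, while Jund lay 0.07 below its own. On KO 1, Jund lay 0.24 above its mean and Junb 0.24 below. On HET 2 Jun had its largest deviation, 0.33, while Jund lay at its HET mean to within 0.01.

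Genes with a course across the 9 arrays like that of Jun were found by the mean absolute difference between profiles, each centred on its own mean, with no regard to function. The nearest was Ccn1, which encodes a secreted matrix protein, at a mean distance of 0.12 log2 units. Edn1, the gene of the vasoconstrictor peptide endothelin-1, followed at 0.14, the vault RNA Vaultrc5 at 0.20, Ctxn1 at 0.21 and the small nucleolar RNA Rnu3a at 0.23. All 5 lay above their own mean on the 3 KO arrays and below it on the other 6, as Jun did. The search used the same KO values for which Jun was chosen, so it selects this course, and nothing is read from it. The other AP-1 members were left out of this search and were ranked separately among all genes tested. Of them Jund came closest, at 0.41 and rank 153 of 13206, followed by Fos at 0.48 and rank 449. Fosl2 was at rank 620 and Junb at rank 863, and Fosb was farthest, at 0.60 and rank 3119.

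**Figure D4:**
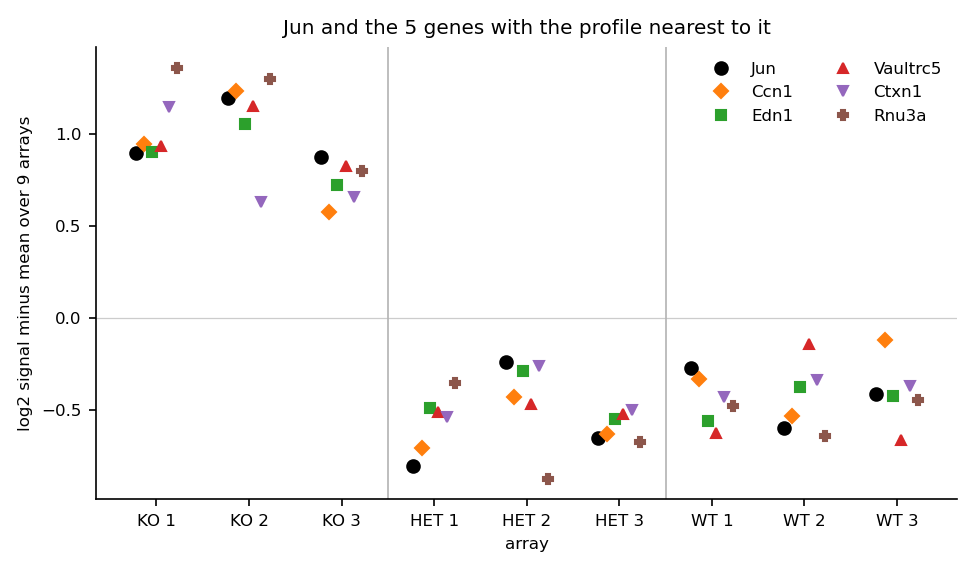
Log2 signal minus each gene's mean over the 9 arrays (vertical axis) for Jun (black circles) and the 5 genes nearest to it (coloured symbols) on the KO, HET and WT arrays. For all 6 genes the KO arrays lie above 0 and the HET and WT arrays below it, a course that the search for nearness to Jun selects.

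Other genes of the AP-1 network were counted from lists, in KO against WT, where 23.5% of all genes passed by limma. Among relatives in the wider AP-1 superfamily, 14 of 16 were tested, 0 rose, 1 fell and 13 did not pass, with a median difference of 0.02. The gene that fell was Nfe2l2, which encodes the antioxidant regulator Nrf2, at 11.04 ± 0.10 in KO and 11.27 ± 0.04 in WT (SD, n = 3; difference -0.24, adjusted p = 0.0341). Its call was lost without any of WT 1, WT 2, WT 3, HET 1, KO 2 or KO 3, where 0 members of the list passed. Mafg (0.22), a small Maf protein like Maff, Atf7 (0.13) and Bach2 (0.10) did not pass (adjusted p = 0.0676, 0.156 and 0.213).

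Of 33 kinases and transcription factors upstream of the AP-1 genes 27 were tested, and 3 rose, 4 fell and 20 did not pass, 25.9% in all, with a median difference of 0.01. Srf, the serum response factor that binds the CArG box of many immediate early genes, rose by 0.53 ± 0.06 (adjusted p = 0.00132). Its level was 9.97 ± 0.08 in KO, 9.48 ± 0.05 in HET and 9.44 ± 0.01 in WT. Mapk7, the kinase ERK5, rose by 0.42 ± 0.06 (adjusted p = 0.00214). Map3k5, the stress kinase ASK1, fell by 0.77 (SE 0.13, adjusted p = 0.00424), and Map2k6, a kinase that activates p38, fell by 0.72 (SE 0.10, adjusted p = 0.00258). Both had HET means between the KO and WT means, at 7.45 for Map3k5 (6.92 in KO, 7.69 in WT) and 8.63 for Map2k6 (8.17 in KO, 8.89 in WT). Without WT 1 or without WT 2 the list had 2 genes that rose and 2 that fell.

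Of 9 genes for the turnover of AP-1 messenger RNA or protein 8 were tested, and 1 rose, 0 fell and 7 did not pass, with a median of 0.08. The riser was Zfp36l2, an RNA-binding protein of the tristetraprolin family that speeds decay of messages with AU-rich elements, at 10.98 ± 0.11 in KO and 10.68 ± 0.07 in WT (SD, n = 3; difference 0.30, adjusted p = 0.0156). That call was lost without WT 2 (adjusted p = 0.0509) or WT 3 (0.052) and with arrays centred on their medians (0.0716). It was also lost with both WT 2 and KO 1 left out (0.0576), where the 1 call of the list was a fall of Cop1 (adjusted p = 0.0381). Cop1 (-0.19, adjusted p = 0.0994) and Fbxw7 (0.09), ubiquitin ligase components that mark Jun for destruction, did not pass with all arrays, nor did Zfp36l1 (0.32). Cop1 passed as a fall without KO 1 (adjusted p = 0.0151) and with array weights (0.0124).

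Of 22 genes described in other systems as AP-1 targets 14 were tested, and 4 rose, 0 fell and 10 did not pass, 28.6% in all against 8.27% of all genes that rose and 15.2% that fell, with a median of 0.18. Edn1, also among the genes nearest to Jun, stood at 8.15 ± 0.16 in KO, 6.81 ± 0.14 in HET and 6.80 ± 0.09 in WT (SD, n = 3; KO minus WT 1.34 ± 0.10, adjusted p = 7.82e-04). Plau, the gene of urokinase, a protease that activates plasminogen, stood at 8.11 ± 0.19 in KO, 7.38 ± 0.10 in HET and 7.47 ± 0.15 in WT (KO minus WT 0.64 ± 0.11, adjusted p = 0.00482). The gelatinase gene Mmp9 (0.42) and the cyclin D1 gene Ccnd1 (0.27) also rose, with adjusted p of 0.0221 and 0.0242. These last 2 calls were both lost without WT 1 or without KO 2, where 2 genes rose, without WT 2, where 2 rose and 1 fell, with arrays centred on their medians and with the Xist level as a covariate. Without KO 3 the call of Ccnd1 was lost (adjusted p = 0.065). The call of Mmp9 was also lost with quantile normalization (limma adjusted p = 0.069), with cyclic loess (0.0775) and with both WT 2 and KO 1 left out (0.113). Mmp9 lay near the filter level, at 6.39 to 6.57 on the WT arrays, and was not tested with the filter at the array median. Of the list, 5 genes did not pass the filter on dim genes and 3 had no probe set of their own.

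Immediate early genes outside AP-1, which respond to the same signals, had 11 of 16 tested members higher and 0 lower in KO than in WT (68.8%). Of all genes tested, 8.27% were called higher and 15.2% lower. The median difference of the list was 0.39, beside -0.0046 over all genes tested. Like the other lists, it was chosen with earlier results of these data known. Ccn1, also the gene nearest to Jun, rose by 1.25 ± 0.17, and Ier2, Ier3 and Ier5 by 0.77, 0.69 and 0.60 (adjusted p from 0.00202 to 0.00517). In HET against WT, 0% of all 13207 genes passed by limma. The 0 genes that passed in each of these 5 lists (adjusted p of 0.939 or more) follow from that, and nothing is read from them.

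**Figure D5:**
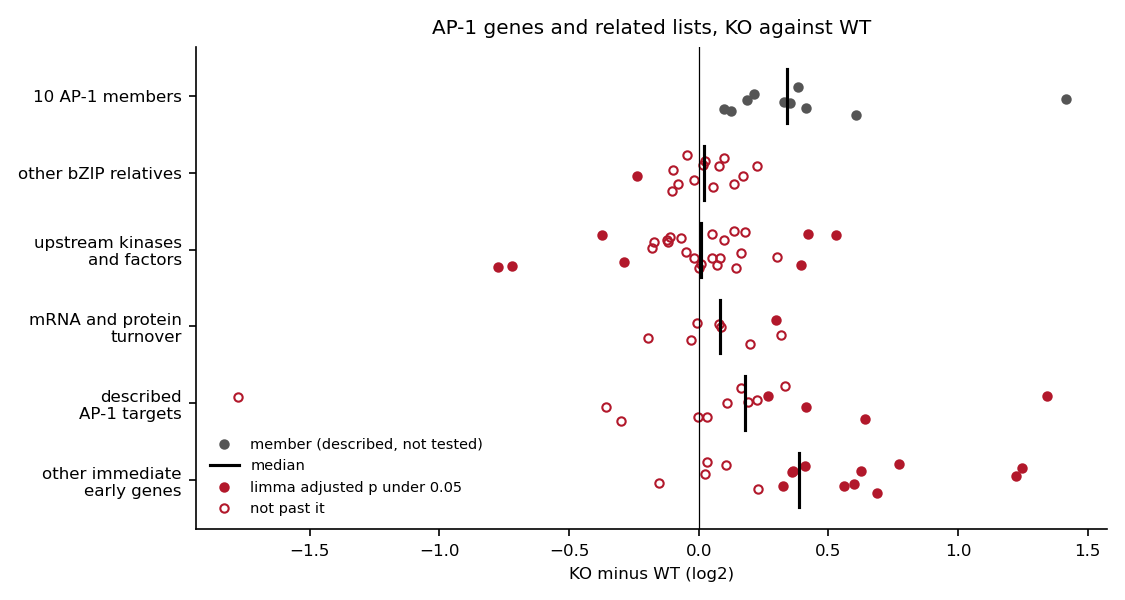
KO minus WT difference in log2 units (horizontal axis) of each tested gene (points, spread vertically for visibility) in the AP-1 family and the 5 related lists, with the median of each as a black bar. Filled red points passed limma at an adjusted p under 0.05, open ones did not, and the grey members are described without a test. The other immediate early genes have a median of 0.39, and the wider superfamily a median of 0.02.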

How the data were processed

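Total RNA (100 ng per sample) from 9 mouse yolk sacs or pools was amplified, labelled and hybridised to 1 array each, per the labels' protocols. RMA in Affymetrix Expression Console (version 1.2.1.20) gave the log2 signals that the authors deposited, according to the submitters' notes on processing. No source used here gives the genome build behind the array annotation. Of 28350 probe sets 21780 named 1 gene, 1618 several and 4952 none. The probe set with the highest mean stood for a gene, and each of the 10 members had 1. Array medians ran from 7.07 to 7.20, replicates correlated with r of 0.992 to 0.998, and the number of arrays limits precision.

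A single limma fit (version 3.58.1, R 4.3.3) of all 9 arrays compared the genotypes, with Benjamini-Hochberg adjustment over 13207 genes and a threshold of 0.05. The fit was tested on simulated data. Members, lists and alternatives were chosen with earlier results of these data known. The text names all members, the 4 genes of each list with the smallest p for KO against WT, and the 5 genes nearest to Jun. The search for these 5 left out the other members. It also passed over symbols that start with Gm and a digit, Mir, Snor, LOC, Olfr or Vmn or end in Rik. Any gene outside this rule is marked where it appears. The alternatives changed the filter, the probe set rule, the scaling, the prior, array weights, the arrays used, covariates and the threshold. Entrez numbers matched all 10 members to RefSeq genes.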

Additional observations from a re-analysis of the deposited data

How the results depend on the processing

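The differences of Jun between KO and WT ran from 1.31 to 1.49 over 22 alternative settings, and no call of a member changed sign. Members called in KO against WT numbered 3 with no filter on dim genes, with arrays centred on their medians, with only the 2 genotypes in the fit and with the Xist level as a covariate, 2 when a change of 1.5-fold was also asked, and 3 to 4 with 1 array left out. In KO against HET they numbered 1 with the Xist level or with a change of 1.5-fold, and 2 to 4 with 1 array left out. In HET against WT they numbered 0 in all 24 settings. Over all genes, KO against WT had 3101 calls, 2016 with the Xist level, 608 with a change of 1.5-fold and 1669 (without WT 1) to 3842 with 1 array left out. KO against HET had 2875 calls, 843 with the Xist level, 1739 with Eif2s3y, 567 with a change of 1.5-fold and 1508 to 3149 with 1 array left out. HET against WT had 0 calls, 2 with array weights, 4 without WT 2 and KO 1 and 0 to 5 with 1 array left out.

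In KO against WT, calls in the wider superfamily list numbered 0 with no filter, with only the 2 genotypes, with the Xist level and with 1.5-fold, 2 with quantile normalization, cyclic loess, array weights, Eif2s3y or an adjusted p under 0.1, and 0 to 1 with 1 array left out. Under quantile normalization and cyclic loess both calls were rises. Calls among upstream genes numbered 4 with only the 2 genotypes, 2 with 1.5-fold and 4 to 8 with 1 array left out. Calls in the turnover list numbered 0 with centred arrays or 1.5-fold, 2 with array weights or an adjusted p under 0.1, and 0 to 2 with 1 array left out. Calls among described targets numbered 7 with array weights (5 rises and 2 falls), 2 with the Xist level or 1.5-fold, and 2 to 4 with 1 array left out. Calls among other immediate early genes numbered 6 with 1.5-fold and 9 to 11 with 1 array left out. Members above the 90th percentile of residual SD numbered 2 to 4 with 1 array left out. The cause of these changes was not tested. Settings that leave out arrays or filter more strictly have fewer arrays or genes by construction, and the part of this in the changes was not tested either.

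Same-numbered arrays deviated together with r from -0.257 to 0.425, and 4 of 9 arrays had their closest array of another genotype under their own number, so the numbers were not taken as pairs. With a replicate block, 3131 genes passed in KO against WT, 2853 in KO against HET and 0 in HET against WT, and 4, 3 and 0 members.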
